A study of Mus musculus with 12 samples.

Results

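A set of 8 genes whose products control the building of mitochondria was followed through 12 histone modification libraries of mouse muscle cells. They are Ppargc1a, Ppargc1b, Esrra, Esrrg, Ppara, Ppard, Nrf1 and Tfam, 8 of 22350 protein-coding genes in the annotation used. The genes were chosen by name and not by a rule on measured values, but with earlier results of these data known. They have 49 annotated transcription start sites (TSSs), which fall into 17 groups once neighbours within 1 kb are joined. Each gene was read in a window of 1 kb either side of its TSSs and over its whole body. The cells are C2C12, an established line of mouse myoblasts (strain C3H in the labels, passages 15 to 18) that stop dividing and fuse into multinucleated myotubes when serum is taken away. Myoblasts were collected near confluence in 10% serum. Myotubes were collected about 5 days after serum withdrawal and were freed of unfused cells by a light trypsin treatment. All the cells are of 1 line, with no genetic change or drug treatment named in the labels.

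PGC-1α and PGC-1β, the proteins of Ppargc1a and Ppargc1b, do not bind DNA themselves. They are coactivators that are recruited by nuclear receptors (the estrogen-related receptors ERRα and ERRγ of Esrra and Esrrg, and the fatty acid sensors PPARα and PPARδ of Ppara and Ppard) and by nuclear respiratory factor 1, the product of Nrf1. NRF1 in turn acts on the gene of TFAM, the factor that packages mitochondrial DNA and starts its transcription, so that nuclear and mitochondrial genes for respiration can be raised together. In skeletal muscle this circuit is known for its part in oxidative capacity and in the response to endurance exercise.

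The marks were trimethylation, dimethylation and monomethylation of histone H3 lysine 4 (H3K4me3, found at active start sites, H3K4me2 at start sites and enhancers, and H3K4me1 mainly at enhancers), acetylation of lysine 27 (H3K27ac, at active promoters and enhancers), trimethylation of lysine 27 (H3K27me3, laid down by the Polycomb system over repressed genes) and trimethylation of lysine 36 (H3K36me3, deposited over transcribed gene bodies). One library was sequenced for each of the 6 marks in each of the 2 cell types, so no value has a biological or technical replicate and no test between cell types was possible. The libraries held between 1858771 reads (myoblast H3K27ac) and 7033100 reads (myoblast H3K36me3). A level is the number of reads in a window over the number that the mean of the same library would give there, and its 95% interval is an exact Poisson interval. A change is the ratio of the myotube level to the myoblast level divided by the median ratio of all promoters (or gene bodies) with enough reads, here called the relative ratio, and its 95% interval is an exact conditional binomial interval. Promoters needed 20 reads in both libraries together and gene bodies 50. These intervals cover counting error only, and a relative ratio compares 2 libraries and not 2 conditions. Division by the median matters for some marks. The median promoter in myotubes stood at 0.869 of its myoblast level for H3K4me3, 0.594 for H3K4me2, 0.870 for H3K4me1, 0.570 for H3K27ac, 0.787 for H3K27me3 and 0.959 for H3K36me3 when only total reads were used. For gene bodies the same medians were 0.927, 0.875, 0.991, 0.776, 1.13 and 1.02.

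The labels of the cells were checked on marker genes. Of 8 myotube markers, 7 had over 2-fold higher relative H3K4me3 in the myotube library and 7 had higher H3K27ac, and of 7 myoblast markers 3 had lower H3K4me3. Promoters of adipocyte, liver, neuron and blood markers stayed at or below 2.77-fold for H3K4me3 in both libraries. In myoblasts, the regions in the peak list of the H3K27ac sample were rich in H3K27me3 reads (6.76-fold) and poor in H3K27ac reads (0.588-fold), and the regions listed for H3K27me3 were rich in H3K27ac reads (36.4-fold). Levels and ratios below come from the reads and do not depend on these lists.

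H3K4me3 and H3K27ac lay above the genome mean at the main start site of 7 of the 8 genes in both cell types, and Esrrg was the exception. Each library comes from a bulk population, so fewer cells with a mark and less of it per cell cannot be told apart. The main TSS of a gene is the annotated TSS with the most H3K4me3 reads in both libraries together. H3K4me3 at the main TSS lay above the genome mean (lower end of the interval above 1) for 7 of 8 genes in myoblasts, against 54.6% of all promoters, and for 7 of 8 in myotubes, against 54.3%. For H3K27ac it was again 7 of 8 in myoblasts, against 51.6%, and 7 of 8 in myotubes, against 50.6%. At Ppargc1a in myoblasts (5 reads, 3.44-fold) and at Ppara in myotubes (9 reads, 2.44-fold), H3K27ac only equalled the median of all promoters. H3K27me3 lay above the genome mean at 1 of 8 main promoters in myoblasts, that of Ppara, against 18.1% of all promoters, and at 0 of 8 in myotubes, against 12.6%. The median H3K4me3 level over the 8 main promoters was 31.4-fold in myoblasts and 24.6-fold in myotubes, where all promoters had medians of 5.07-fold and 4.66-fold.

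**Figure D1:**
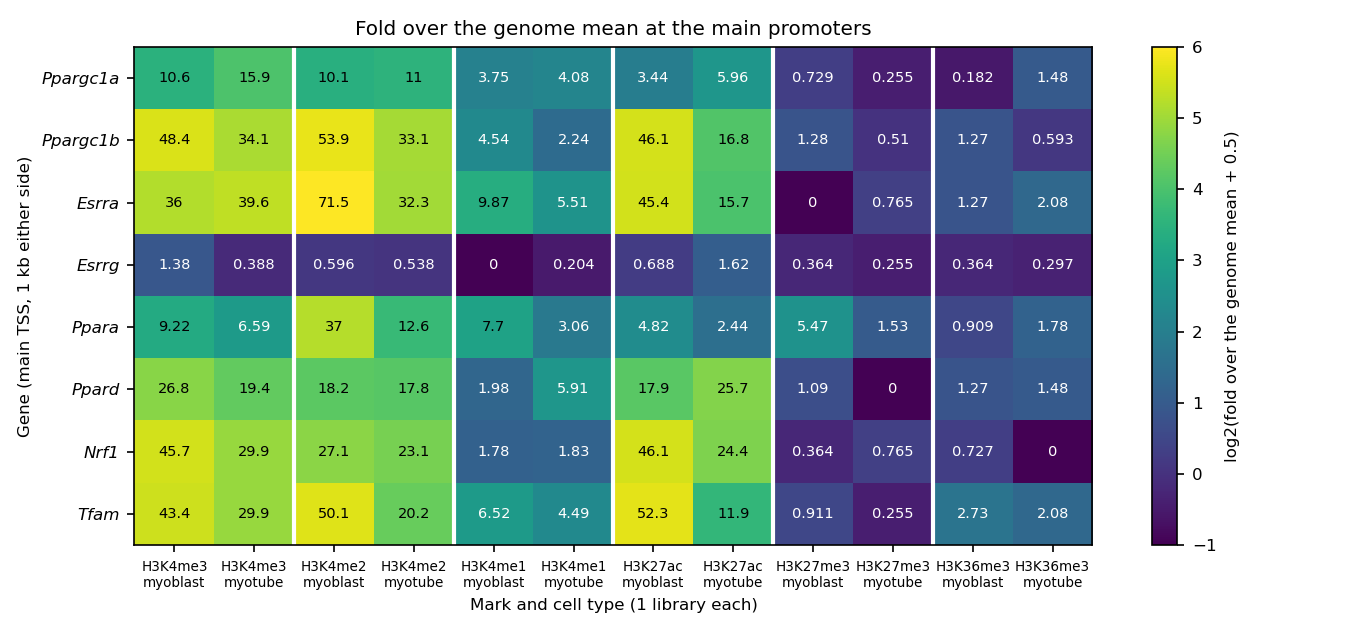
Level of each mark at the main promoter of each gene, as fold over the genome mean of the same library in 2 kb. Rows are the 8 genes, columns the 12 libraries (myoblast and myotube side by side for each mark), the number in a cell is the fold and the colour its log2 after adding 0.5. Esrrg stays between 0 and 1.62-fold in every library, Ppara is the gene with H3K27me3 in myoblasts (5.47-fold), and the highest value is H3K4me2 at Esrra in myoblasts (71.5-fold).

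In the order of myoblast H3K4me3, Ppargc1b stood highest (105 reads, 48.4-fold, interval 39.6 to 58.6), followed by Nrf1 (99 reads, 45.7-fold), Tfam (94 reads, 43.4-fold), Esrra (78 reads, 35.97-fold) and Ppard (58 reads, 26.8-fold). Ppargc1a (23 reads, 10.6-fold), Ppara (20 reads, 9.22-fold) and Esrrg (3 reads, 1.38-fold) came last. The place of Ppargc1a holds for this window only. Its 500 bp with the most H3K4me3 reads lay outside the window, centred 1300 bp downstream of the TSS, with 71.9-fold in myoblasts and 88.4-fold in myotubes. Each pair of neighbours from Ppargc1b to Ppard had overlapping intervals, and so did Ppargc1a and Ppara. In myotubes Esrra stood highest (102 reads, 39.6-fold, interval 32.3 to 48.0), ahead of Ppargc1b (88 reads, 34.1-fold), Nrf1 and Tfam (77 reads and 29.9-fold each), Ppard (50 reads, 19.4-fold), Ppargc1a (41 reads, 15.9-fold), Ppara (17 reads, 6.59-fold) and Esrrg (1 read, 0.388-fold). Each pair of neighbours from Esrra to Ppargc1a overlapped in its intervals.

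Some main promoters changed beyond 2-fold relative to the median promoter for H3K4me1, H3K27ac and H3K27me3, and none for the other marks. For H3K4me3 none of the 7 promoters with enough reads did, and 9.45% of all promoters tested did so in either direction. For H3K4me2 it was again 0 of 7, against 17.6%. By total reads alone 3 of them (Esrra, Ppara and Tfam) were over 2-fold lower in myotubes, where the median promoter itself stood at 0.594. When scaled by 10 kb windows outside peaks, 4 members passed. The share of all promoters was not computed under these other scalings, and the 17.6% does not apply to them. H3K4me1 was over 2-fold higher in myotubes at 1 of 6 (Ppard), against 13.2% of all promoters, and over 2-fold lower at 1 of 6 (Ppara), against 13.2%. H3K27ac was higher at 2 of 6 (Ppargc1a and Ppard), against 14.7%, and lower at 1 of 6 (Tfam), against 13% of all promoters. H3K27me3 could be compared at Ppara alone, where it was lower, and among all promoters 6.66% were higher and 10.5% lower. H3K36me3 could be compared at Tfam alone, where it did not pass 2-fold, and 22.5% of all promoters passed.

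**Figure D2:**
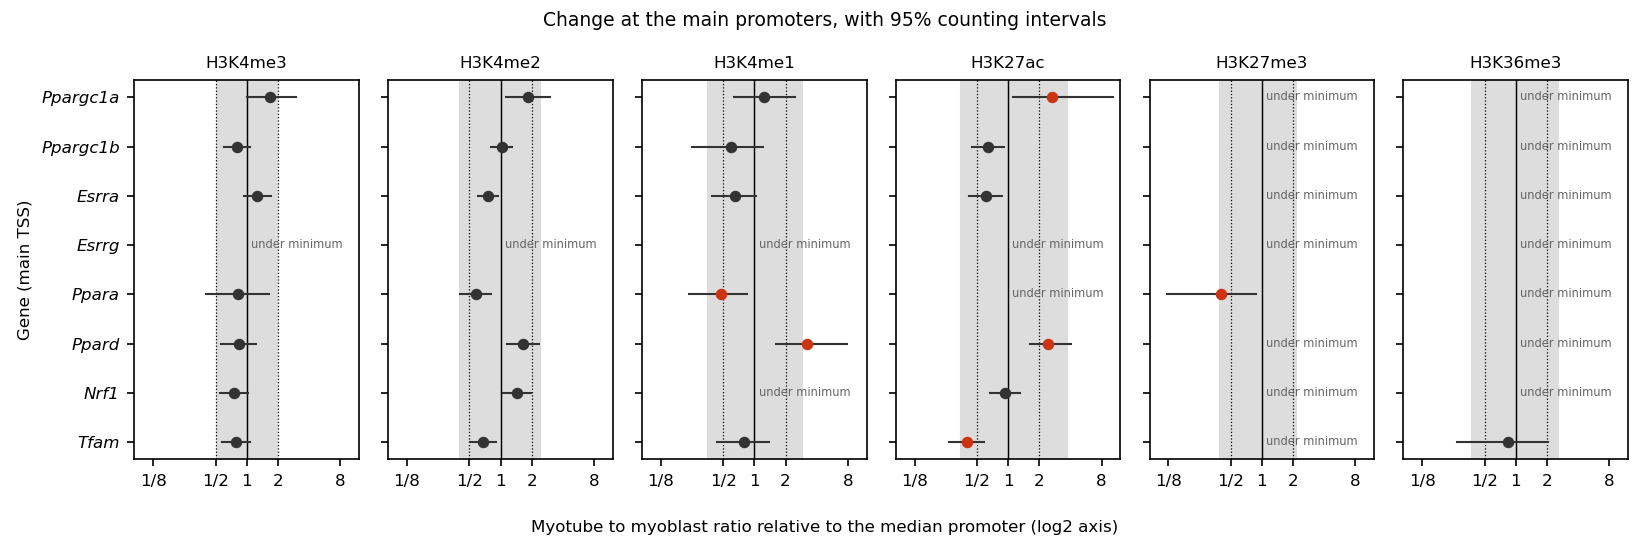
Relative ratio of myotube to myoblast at the main promoter of each gene, 1 panel per mark, on a log2 axis. Points are ratios, red where past 2-fold (dotted lines), bars are 95% counting intervals, and the grey band holds the middle 90% of all tested promoters. Red points stand for H3K4me1 at Ppara (0.475) and Ppard (3.24), H3K27ac at Ppargc1a (2.64), Ppard (2.45) and Tfam (0.403), and H3K27me3 at Ppara (0.401).

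Ppargc1a encodes the coactivator that is induced by exercise, cold and fasting. It lies on chromosome 5 (mm9 chr5:51845488-51958964, minus strand, 113.5 kb) with 4 annotated transcripts and TSSs in 2 groups. The main TSS is at position 51945096, and an upstream TSS, at position 51958964, lies at -13868 bp from it. Both promoters are shown because they differ in H3K27ac and because the main one holds a perfect cyclic AMP response element. They run 250 bases before to 50 bases after the TSS, 5′ to 3′ on the minus strand of mm9. Capitals mark matches to the motifs searched on both strands, which were TGACGTCA (CRE), GCGCANGCG (NRF1), CCGGAAG (the ETS factor GABP), TCAAGGTCA (the ERR response element), CAGCTG (an E-box of the kind bound by MyoD), AAGATGGC (YY1) and MEF2. GC boxes (GGGCGG) were counted but not capitalised.
Ppargc1a main promoter, chr5:51945047-51945346: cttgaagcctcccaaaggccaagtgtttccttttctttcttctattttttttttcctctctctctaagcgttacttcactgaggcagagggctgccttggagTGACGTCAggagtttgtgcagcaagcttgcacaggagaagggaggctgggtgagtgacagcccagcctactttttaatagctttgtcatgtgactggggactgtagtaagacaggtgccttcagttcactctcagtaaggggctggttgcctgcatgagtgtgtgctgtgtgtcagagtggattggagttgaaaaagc
Ppargc1a upstream promoter, chr5:51958915-51959214: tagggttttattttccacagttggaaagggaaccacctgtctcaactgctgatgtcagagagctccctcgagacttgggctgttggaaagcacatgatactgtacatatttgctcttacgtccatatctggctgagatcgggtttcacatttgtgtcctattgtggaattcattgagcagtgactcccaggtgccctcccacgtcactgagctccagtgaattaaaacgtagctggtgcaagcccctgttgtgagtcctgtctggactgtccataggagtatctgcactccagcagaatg

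The CRE of the main promoter lies from -148 to -141 relative to the TSS, and 2.28% of all main promoters hold such a match in the same 300 bases. The main promoter had 2 CpG dinucleotides in these 300 bases, an observed to expected ratio of 0.114, lower than at 6 of the other main promoters (0.835 to 0.996) and than at Esrrg (0.421). The median of all promoters was 0.579. H3K4me3 of this gene stood downstream of the TSS. The 500 bp with the most H3K4me3 reads were centred 1300 bp downstream of the TSS, with 39 reads in myoblasts (71.9-fold) and 57 in myotubes (88.4-fold). They held 17 CpGs, at an observed to expected ratio of 0.640, against 6 and 0.192 in the 500 bp around the TSS itself. Among 11135 promoters with enough reads the maximum lay at a median of 300 bp downstream, and 5.95% had it at least 1 kb downstream. Of the members with enough reads, Ppargc1a alone did so. Esrrg (3 reads at its maximum) and Ppara (18 reads) had too few to be counted.

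**Figure D3:**
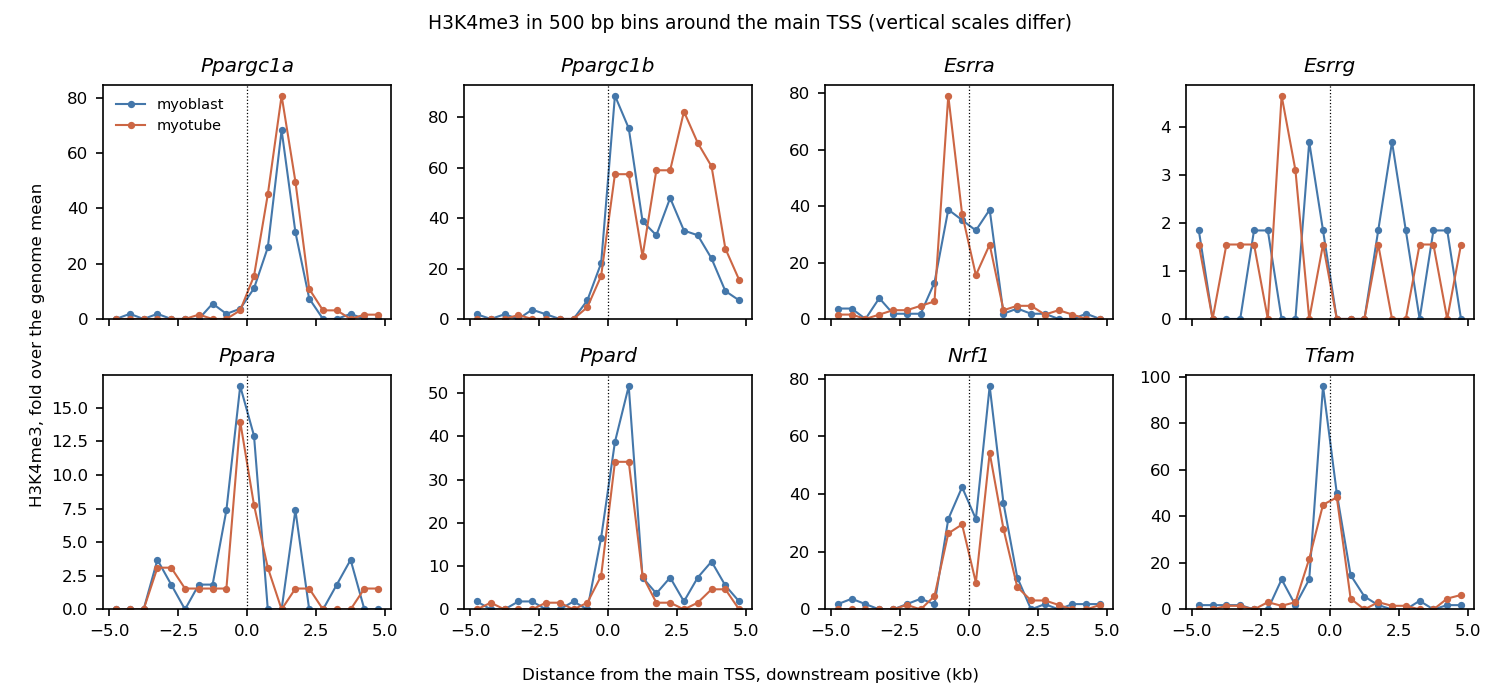
H3K4me3 as fold over the genome mean in 500 bp bins within 5 kb of the main TSS of each gene (x axis, distance in kb, downstream positive), in myoblasts (blue) and myotubes (red), with 1 library each and no error bars. Ppargc1a peaks at +1.25 kb in both libraries (68.3-fold and 80.7-fold), and Ppargc1b has a second maximum at +2.75 kb in myotubes (82.2-fold against 35.1-fold in myoblasts). Vertical scales differ between panels, and the scale of Esrrg ends below 5-fold.

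At the main promoter of Ppargc1a, H3K27ac was covered by 5 reads in myoblasts (3.44-fold, interval 1.12 to 8.03) and 22 in myotubes (5.96-fold, interval 3.73 to 9.02). The relative ratio was 2.64 (1.12 to 10.3), higher in myotubes. By total reads alone it was 1.51, which is not past 2-fold. In the 500 bp with the most H3K4me3, which lay outside this window, H3K27ac was 7 reads in myoblasts (19.3-fold) and 23 in myotubes (24.9-fold). Within the promoter window H3K4me3 went from 23 to 41 reads, with a relative ratio of 1.69 (1.01 to 3.01). H3K4me2 went from 34 to 41 reads there, with 1.82 (1.13 to 2.98). The direction for H3K4me2 rests on the scaling, since its ratio was 1.08 by total reads and 0.697 when 10 kb windows outside peaks were set to 1. The upstream promoter differed more between the libraries. There H3K27ac was 2 reads in myoblasts (1.38-fold) and 28 in myotubes (7.58-fold, interval 5.04 to 10.9), with a relative ratio of 6.67 (2.44 to 83.6). H3K4me1 was 9 reads (1.78-fold) and 27 reads (5.51-fold), with a relative ratio of 3.33 (1.63 to 8.61), and H3K4me2 11 and 17 reads, with 2.28 (1.04 to 5.55) but 1.35 by total reads, which is not past 2-fold. H3K4me3 stayed low at this upstream site, with 4 and 8 reads (1.84-fold and 3.10-fold). A further 1 kb window in the first part of the gene, centred 8108 bp downstream of the main TSS within an intron, had 0 H3K27ac reads in myoblasts and 19 in myotubes (10.3-fold, interval 6.19 to 16.1). It was picked by its myotube reads, as the 1 window of 106 inside the gene that was past 10-fold in myotubes, where 1.85% of all such windows passed. A total of 3 H3K27ac peaks were deposited over the gene for myotubes. The body of Ppargc1a carried little H3K36me3, 252 reads in myoblasts (0.808-fold) and 120 in myotubes (0.627-fold), and its H3K27me3 was 1.18-fold (1.06 to 1.31) and 0.913-fold (0.791 to 1.05).

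Ppargc1b encodes PGC-1β, the relative of PGC-1α that is more constant in its expression. It lies on chromosome 18 (mm9 chr18:61457790-61560085, minus strand, 102.3 kb) and has 1 group of TSSs. Its promoter was strongly marked in both libraries. H3K4me3 was 105 reads in myoblasts and 88 in myotubes, with a relative ratio of 0.813 (0.604 to 1.09), and H3K4me2 181 and 123 reads, with 1.04 (0.814 to 1.31). H3K27ac was 67 reads (46.1-fold) and 62 reads (16.8-fold), with a relative ratio of 0.639 (0.444 to 0.915). That ratio depended on where the window lay, and 1.29 was obtained for the 2 kb downstream of the TSS.

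Inside Ppargc1b the picture was one of broad acetylation. Windows of 1 kb were laid over all gene bodies at least 2.5 kb from any annotated TSS, and a window was called acetylated at 10-fold H3K27ac or more. In myoblasts 19 of 100 windows of Ppargc1b passed, against 1.46% of all 878801 windows, and in myotubes 24 of 100 passed, against 1.85%. Both libraries shared 14 of them, which is 14 of 19 for myoblasts and 14 of 24 for myotubes. The window 2764 bp downstream of the TSS had 59 reads in myoblasts (81.2-fold) and 253 in myotubes (137-fold). In the window 14764 bp downstream the reads were 3 in myoblasts (4.13-fold) and 57 in myotubes (30.9-fold), and 18764 bp downstream they were 51 (70.2-fold) and 121 (65.5-fold). Over the whole body H3K27ac was 737 reads in myoblasts (9.91-fold) and 2265 in myotubes (11.99-fold, interval 11.5 to 12.5), the highest of the 8 genes in both libraries although its myoblast interval overlapped those of Ppard and Tfam, with a relative ratio of 1.56 (1.43 to 1.69). H3K4me3 over the body was 361 and 629 reads, with a relative ratio of 1.58 (1.39 to 1.81). The deposited H3K4me3 peak at its promoter was 6026 bp long in myoblasts and 6047 bp in myotubes, the longest at a main TSS among the 8 genes in both. H3K36me3 over the body was 5.59-fold and 4.95-fold.

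**Figure D4:**
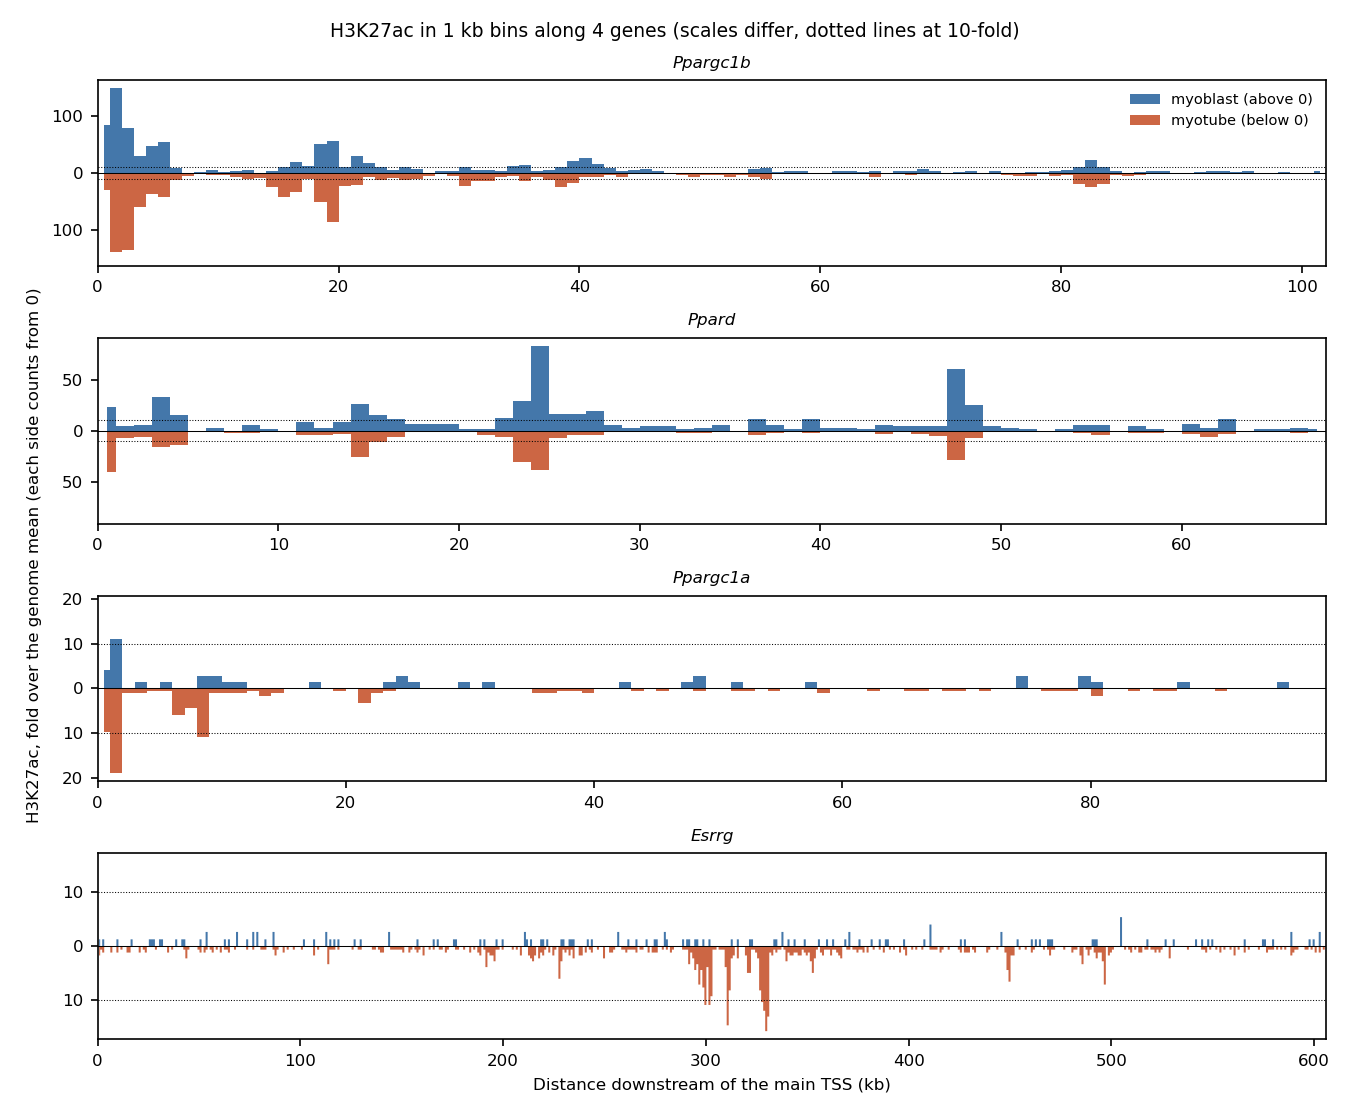
H3K27ac in 1 kb bins downstream of the main TSS (x axis, kb) of 4 genes, as fold over the genome mean, drawn upward from 0 for myoblasts (blue) and downward from 0 for myotubes (red), with dotted lines at 10-fold and different scales per gene. Ppargc1b is acetylated in both libraries over its first 6 kb and around +19 kb. Ppard has its highest bin at +24.5 kb in myoblasts (82.6-fold), and Esrrg has bins past 10-fold in myotubes alone, from 299500 to 330500 bp downstream.

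Esrra encodes ERRα, the receptor that carries much of the PGC-1 signal to genes of respiration and of fatty acid oxidation. It lies on chromosome 19 (mm9 chr19:6985467-6996303, minus strand, 10.84 kb) with 5 TSSs in 1 group. Its promoter is shown because it was the only one of the 8 with an NRF1 match in the bases searched around the main TSS. Ppara had NRF1 matches around other annotated TSSs, at -581 and 212 bp from its main TSS. Those matches began at -830, 181 and 182 bp from the main TSS of Ppara. Capitals mark the NRF1 match of Esrra and an E-box.
Esrra main promoter, chr19:6996208-6996507: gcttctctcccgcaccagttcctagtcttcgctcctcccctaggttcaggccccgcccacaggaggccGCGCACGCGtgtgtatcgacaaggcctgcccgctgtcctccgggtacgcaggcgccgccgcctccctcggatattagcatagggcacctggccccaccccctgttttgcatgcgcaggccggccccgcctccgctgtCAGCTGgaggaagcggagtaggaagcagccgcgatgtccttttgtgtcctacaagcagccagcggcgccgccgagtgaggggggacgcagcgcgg

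The NRF1 match lies from -182 to -174 relative to the TSS (8.13% of all main promoters hold one) and the E-box from -45 to -40 (15.4% hold one). The H3K4 marks and H3K27ac lay above the genome mean at this promoter in both libraries, and H3K27me3 and H3K36me3 did not. H3K4me2 was 240 reads in myoblasts (71.5-fold, at the 96.6 percentile of all promoters) and 120 in myotubes (32.3-fold), with a relative ratio of 0.763 (0.605 to 0.9495). H3K4me3 was 78 and 102 reads, with 1.26 (0.934 to 1.72), and H3K27ac 66 reads (45.4-fold) and 58 reads (15.7-fold), with 0.607 (0.418 to 0.876). The H3K4me3 of this gene was placed differently along the promoter in the libraries. In the 500 bp bin centred 750 bp upstream of the TSS it was 21 reads in myoblasts (38.7-fold) and 51 in myotubes (79.1-fold), while in the bin centred 250 bp downstream it was 17 reads (31.4-fold) and 10 reads (15.5-fold). With the 2 kb downstream of the TSS as window, the relative ratio was 0.748. H3K4me1 over the body was 157 reads (5.72-fold) and 75 reads (2.82-fold), with a relative ratio of 0.501 (0.373 to 0.660), just short of 2-fold, and H3K4me2 over the body had 0.513 (0.406 to 0.641). H3K36me3 over the body had the highest fold among the 8 genes, with intervals that overlapped those of Tfam in myoblasts and of Ppard and Tfam in myotubes. It was 232 reads in myoblasts (7.79-fold, interval 6.82 to 8.86) and 148 in myotubes (8.10-fold, 6.85 to 9.52), and these intervals overlapped.

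Esrrg encodes ERRγ, the ERR of oxidative muscle and heart, and was the gene of the 8 with no marked promoter. It spans 606.1 kb of chromosome 1 (mm9 chr1:189432670-190038764, plus strand) with TSSs in 2 groups, the second 389036 bp downstream of the first. At the first group H3K4me3 was 3 reads in myoblasts and 1 in myotubes, and at the second 1 and 0 reads. All its intervals for H3K4me3 held the genome mean, and so did those for H3K27me3 (2 and 1 reads at the first group, 2 and 3 at the second), so neither mark was detectable above the mean at this depth. In the body the libraries differed. H3K27ac was 140 reads in myoblasts (0.318-fold, interval 0.267 to 0.375) and 879 in myotubes (0.785-fold, 0.734 to 0.839), both under the genome mean, with a relative ratio of 3.16 (2.66 to 3.83). H3K4me2 was 306 reads (0.301-fold) and 751 reads (0.666-fold), with 2.53 (2.21 to 2.90). That ratio was 1.80 when the TSS windows of all genes were left out and the median was taken anew. The TSS windows of Esrrg itself held few H3K4me2 reads, 2 and 2 at the first group and 2 and 3 at the second. H3K4me1 over the body was 595 and 1107 reads, with 1.94 (1.75 to 2.15), which did not pass 2-fold. The H3K27ac was not even along the gene. Of 598 windows of 1 kb, 0 were past 10-fold in myoblasts, against 1.46% of all windows, and 7 in myotubes, a share below the 1.85% of all windows. All 7 lay in an intron within a stretch from 299500 to 330500 bp downstream of the TSS (chr1:189731670-189763669 in full). They held 19 to 29 reads in myotubes and 0 or 1 in myoblasts. The 7 windows were picked by their myotube reads, so this contrast follows in part from the choice and is no separate result. The highest of them, at chr1:189761670-189762669, had 0 reads in myoblasts and 29 in myotubes (15.7-fold, interval 10.5 to 22.5). At 5-fold 1 window passed in myoblasts and 15 in myotubes, and with the myotube library thinned to the size of the myoblast one 6 passed 10-fold, both alternatives chosen after the data were seen. H3K36me3 over the body stayed at 0.410-fold and 0.483-fold.

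Ppara encodes PPARα, the receptor that turns on fatty acid oxidation in liver, heart and oxidative muscle. It lies on chromosome 15 (mm9 chr15:85565413-85633249, plus strand, 67.84 kb) with TSSs in 2 groups. It was the one member with H3K27me3 above the genome mean at a promoter. H3K27me3 at the main promoter was 30 reads in myoblasts (5.47-fold, interval 3.69 to 7.81, at the 96.7 percentile of all promoters) and 6 in myotubes (1.53-fold, 0.562 to 3.33), with a relative ratio of 0.401 (0.121 to 0.868). With 500 bp either side the reads were too few for a ratio. At the second TSS group, 36650 bp downstream, it was 39 reads (7.11-fold) and 18 reads (4.59-fold), with 0.844 (0.442 to 1.47). Over the body it was 955 reads (5.13-fold, 4.81 to 5.47) and 595 reads (4.47-fold, 4.12 to 4.85), above 98% of all gene bodies in both libraries. Active marks were present at this promoter too, and H3K4me1 alone among them passed 2-fold. H3K4me2 was 124 reads (36.95-fold) and 47 reads (12.6-fold), with a relative ratio of 0.583 (0.403 to 0.812), and H3K4me1 39 reads (7.70-fold) and 15 reads (3.06-fold), with 0.475 (0.234 to 0.847). That call was lost in the 2 kb downstream of the TSS (0.702) and with 5 reads added (0.523). H3K4me3 was 20 reads (9.22-fold) and 17 reads (6.59-fold), with 0.830 (0.405 to 1.65). H3K27ac was 7 and 9 reads, too few to compare. H3K36me3 over the body was 110 reads (0.590-fold, 0.485 to 0.711) and 97 reads (0.848-fold, 0.688 to 1.03), with a relative ratio of 1.42 (1.07 to 1.88).

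Ppard encodes PPARδ, the PPAR that is most widely expressed in muscle. It lies on chromosome 17 (mm9 chr17:28369699-28438414, plus strand, 68.72 kb), with a main group of TSSs and a second one 38901 bp downstream. Its main promoter had more H3K27ac relative to the median promoter in the myotube library, and so it is shown, with an E-box in capitals that lies from -228 to -223.
Ppard main promoter, chr17:28369502-28369801: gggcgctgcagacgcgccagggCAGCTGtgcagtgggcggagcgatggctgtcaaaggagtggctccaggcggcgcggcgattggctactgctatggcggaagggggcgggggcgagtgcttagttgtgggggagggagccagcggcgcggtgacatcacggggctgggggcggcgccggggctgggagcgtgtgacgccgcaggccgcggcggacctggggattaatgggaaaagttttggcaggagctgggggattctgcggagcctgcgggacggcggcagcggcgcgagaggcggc

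H3K27ac there was 26 reads in myoblasts (17.9-fold, interval 11.7 to 26.2) and 95 in myotubes (25.7-fold, 20.8 to 31.4), with a relative ratio of 2.45 (1.62 to 4.05). By total reads alone it was 1.40. H3K4me1 was 10 reads (1.98-fold) and 29 reads (5.91-fold), with 3.24 (1.63 to 7.92), and 1.63 in the 2 kb downstream of the TSS. H3K4me3 was 58 and 50 reads, with 0.837 (0.560 to 1.24). Inside the gene fewer windows passed 10-fold H3K27ac in the myotube library, by folds that were not divided by the median. Those past it in myoblasts alone held only 8 to 17 reads there. The window 22447 bp downstream had 8 reads in myoblasts (interval 4.75 to 21.7) and 12 in myotubes (3.36 to 11.4), which overlapped. At 48447 bp downstream the reads were 17 (13.6 to 37.5) and 11 (2.97 to 10.7), which did not overlap. Of 59 windows of 1 kb, 14 were past 10-fold H3K27ac in myoblasts, against 1.46% of all windows, and 7 in myotubes, against 1.85%, and all 7 were among the 14. The window 24447 bp downstream had 62 reads in myoblasts (85.3-fold) and 76 in myotubes (41.1-fold), and the window 47447 bp downstream had 46 reads (63.3-fold) and 54 reads (29.2-fold). H3K4me1 in the latter was 51.7-fold in myoblasts and 13.5-fold in myotubes. Over the whole body H3K4me1 was 1583 reads (9.10-fold, the highest of the 8 genes in myoblasts) and 889 reads (5.28-fold), with a relative ratio of 0.586 (0.539 to 0.636). H3K27ac over the body was 427 reads (8.55-fold) and 671 reads (5.29-fold), with 0.795 (0.704 to 0.901). Neither of these body ratios passed 2-fold. H3K36me3 was 1133 reads (6.00-fold, 5.65 to 6.36) and 873 reads (7.54-fold, 7.04 to 8.05), with a relative ratio of 1.24 (1.13 to 1.35).

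Nrf1 encodes the factor that binds GC-rich sites in promoters of genes for respiratory chain subunits and for the mitochondrial transcription machinery. It lies on chromosome 6 (mm9 chr6:29997988-30103458, plus strand, 105.5 kb) and has 22 annotated transcripts with 17 TSSs in 5 groups. The first of the 5 groups held nearly all of the promoter marks. At this group, H3K4me3 was 99 reads in myoblasts and 77 in myotubes, with a relative ratio of 0.755 (0.552 to 1.03), and H3K27ac 67 reads (46.1-fold) and 90 reads (24.4-fold), with 0.923 (0.668 to 1.29). H3K4me2 was 91 and 86 reads, with 1.44 (1.06 to 1.95), but by total reads the direction was the opposite, with 0.854. At the 4 groups between 28170 and 67964 bp downstream, H3K4me3 was at most 6 reads and H3K27ac at most 4 reads in either library. The 6 reads, in myoblasts 41773 bp downstream, gave 2.77-fold (1.015 to 6.02), with 2 reads there in myotubes. H3K36me3 lay above the genome mean at each of these 4 in myoblasts, and in myotubes at each but the one 28170 bp downstream (5 reads, 1.48-fold, 0.4815 to 3.46). At the last of them it was 47 reads in myoblasts (8.55-fold) and 27 in myotubes (8.01-fold). The body carried H3K36me3 at 1086 reads (3.75-fold) and 623 reads (3.50-fold), with 0.921 (0.832 to 1.02).

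Tfam encodes the packaging and transcription initiation factor of mitochondrial DNA. It is a short gene on chromosome 10 (mm9 chr10:70688212-70701028, minus strand, 12.82 kb). Its main promoter was the one of the 8 where H3K27ac was over 2-fold lower in myotubes relative to the median promoter. H3K27ac was 76 reads in myoblasts (52.3-fold, interval 41.2 to 65.5) and 44 in myotubes (11.9-fold, 8.65 to 16.0), with a relative ratio of 0.403 (0.269 to 0.586), at the 7.23 percentile of tested promoters. Over 9 alternative settings the ratio stayed between 0.227 and 0.432. They include a 1.5-fold threshold, which cannot move the ratio. The 2 kb downstream of the TSS are not among them, since the reads there were too few. Over the body, which is short enough to be read mostly at the promoter, H3K27ac was 78 and 49 reads, with 0.321 (0.218 to 0.461). H3K4me3 at the promoter was 94 and 77 reads, with 0.795 (0.579 to 1.08), and H3K4me2 168 reads (50.1-fold) and 75 reads (20.2-fold), with 0.683 (0.510 to 0.896). H3K36me3 over the body was 263 reads (7.46-fold, 6.59 to 8.42) and 134 reads (6.20-fold, 5.20 to 7.34), with 0.820 (0.659 to 1.01). No NRF1 match was found within 250 bases before and 50 after any of its 4 annotated TSSs.

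Over gene bodies, the 8 genes fell into a set with H3K36me3 and a set without it, with the same members in both libraries. Ppargc1b, Esrra, Ppard, Nrf1 and Tfam, 5 of 8, lay above the genome mean in myoblasts, against 47.6% of all genes, and in myotubes, against 47.8%. Ppargc1a, Esrrg and Ppara lay at or under the mean in both. H3K27me3 lay above the mean over 2 of 8 bodies in myoblasts (Ppargc1a and Ppara), against 23.3%, and over 1 of 8 in myotubes (Ppara), against 28.2%. In the comparison of myotubes with myoblasts, 0 of 8 bodies passed 2-fold for H3K36me3, where 13.1% of all bodies did, 0 of 8 for H3K4me3 (7.15%) and 0 of 7 for H3K27me3 (5.09%). For H3K4me2, 1 of 8 was higher (Esrrg, against 12.7% of all bodies) and 0 of 8 lower (12.1%). For H3K4me1, 0 of 8 were higher (10.7%) and 0 of 8 lower (8.94%). For H3K27ac, 1 of 8 was higher (Esrrg, against 13.2%) and 1 of 8 lower (Tfam, against 11.1%).

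**Figure D5:**
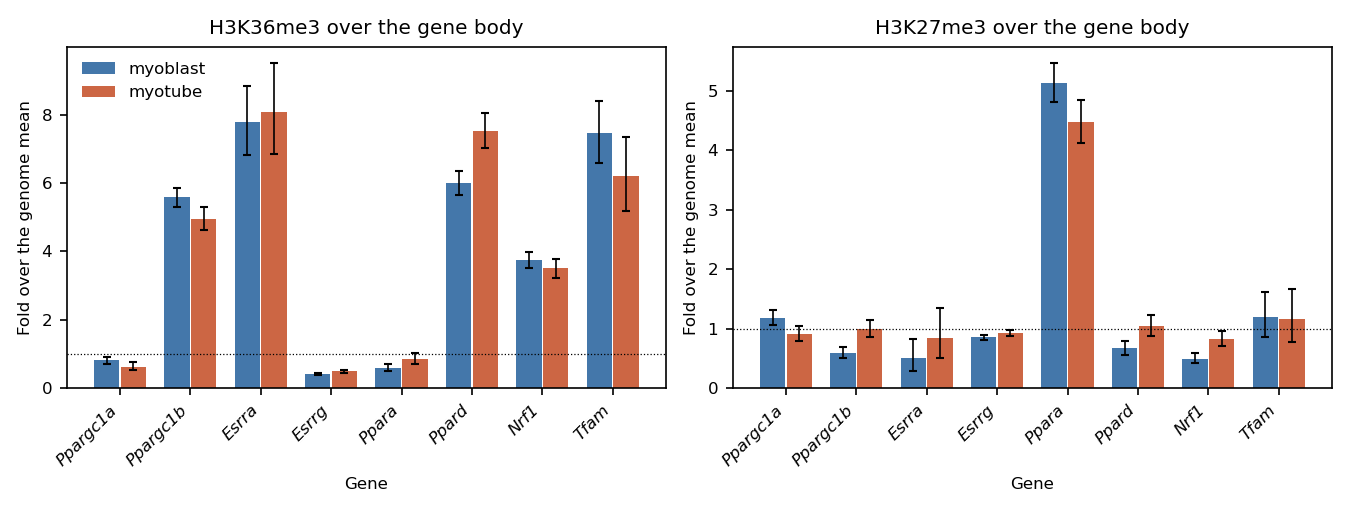
H3K36me3 (left) and H3K27me3 (right) over the whole body of each gene, as fold over the genome mean, in myoblasts (blue) and myotubes (red), with 95% Poisson intervals of single libraries as error bars and the genome mean as a dotted line. A group of 5 genes stands between 3.50-fold and 8.10-fold for H3K36me3 and 3 lie below 1, and H3K27me3 is 5.13-fold and 4.47-fold over Ppara and at most 1.20-fold over the other genes.

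By deposited peaks, the main TSS window of 7 genes overlapped an H3K4me3 peak in myoblasts and that of 6 in myotubes, where Ppara had none. The share of all promoters that overlap such peaks was not computed, so the peak counts here only describe the members. For H3K27ac, 6 genes had a peak at the main TSS in myotubes. In myoblasts Ppara alone had one by the H3K27ac list, and 6 others had one by the H3K27me3 list, whose regions carried the reads of the other mark as described above. Ppara had 14 peaks covering 27231 bp of its body in the former list, and 7 peaks covering 3705 bp in the myotube H3K27me3 list.

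The partners and targets of these genes were read in 3 lists. Among 28 partners and upstream regulators (other receptors and coactivators, and the subunits of the AMP-activated kinase AMPK that acts on PGC-1α), 2 of 24 tested promoters had over 2-fold higher H3K4me3 in myotubes and 0 lower, with a median relative ratio of 0.885. For H3K27ac it was 2 of 24 higher and 0 lower, and for H3K36me3 over the body 4 of 27 higher and 1 lower. Of all features tested, 9.45% passed for H3K4me3 and 13.1% for H3K36me3 in either direction, and for H3K27ac 14.7% were higher and 13% lower. Prkag3, the AMPK γ subunit of glycolytic muscle, went from 21 to 167 H3K4me3 reads (relative ratio 7.39, 4.88 to 12.8) and from 46 to 241 H3K36me3 reads (8.26, 6.11 to 11.8). Prkaa2, the AMPK catalytic subunit of muscle, went from 2 to 63 H3K27ac reads (14.7, 5.77 to 183) and from 81 to 171 H3K36me3 reads (3.36, 2.59 to 4.47).

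Among 12 genes for transcription and replication of mitochondrial DNA, 1 of 12 promoters had higher H3K4me3 and 0 lower, with a median of 1.01. For H3K27ac 1 was higher and 1 lower, against 14.7% and 13% of all promoters, and for H3K36me3 1 was higher and 1 lower, against 13.1% of all bodies in either direction. Counts this small are near those shares. Mterf2 (annotated as Mterfd3), whose product binds mitochondrial DNA as a termination factor family member, had 167 H3K36me3 reads in myoblasts and 47 in myotubes (0.458, 0.319 to 0.627).

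Among 26 target genes of PPARs and ERRs, 2 of 24 promoters had higher H3K4me3 and 0 lower, with a median of 1.07. For H3K27ac 3 of 22 were higher and 3 lower, against the same 14.7% and 13%, and for H3K36me3 6 of 26 were higher and 3 lower, against 13.1%, with a median of 1.17. Cd36, a fatty acid transporter, had 3 H3K4me3 reads in myoblasts and 41 in myotubes (10.2, 4.22 to 66.8). Ucp3, a mitochondrial carrier of muscle, had 0 and 24, at least 7.75-fold higher against a floor of 3 reads in the myoblast library. This bound leaves out the counting error of the 24 reads. Ucp3 had 29 and 66 H3K36me3 reads over its body (3.58, 2.33 to 5.86). H3K27ac was higher at Fabp3, the muscle fatty acid binding protein (11 and 70 reads, 4.08, 2.31 to 9.19), and at Cpt1b, the muscle enzyme that admits fatty acids to mitochondria (4 and 25 reads, 3.59, 1.49 to 17.0). It was lower at Pdk4, the kinase that inhibits pyruvate dehydrogenase (56 and 33 reads, 0.411, 0.256 to 0.636), at Idh3a, of the citric acid cycle (44 and 26 reads, 0.414, 0.241 to 0.677), and at Cycs, cytochrome c (96 and 61 reads, 0.441, 0.313 to 0.610). H3K36me3 was lower over Angptl4, a secreted lipase inhibitor (162 and 25 reads, 0.256, 0.156 to 0.379), and over Cycs (51 and 13 reads, 0.432, 0.204 to 0.763). Over the 3 lists together 5 of 60 promoters passed 2-fold for H3K4me3, all of them higher (8.33%, against 9.45% of all promoters in either direction), 6 higher and 4 lower of 58 for H3K27ac (against 14.7% and 13%), and 16 of 65 gene bodies for H3K36me3 (24.6%, against 13.1%).

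The genes whose main promoters were nearest to each member over the 12 libraries, by Euclidean distance of log2 levels, were Hsd17b11, Zdhhc18 and 5730508B09Rik for Ppargc1a (distance 1.49 to 1.81, where the median gene was 6.66 away). They were Slc19a2, 4922505G16Rik and Rpn2 for Ppargc1b (0.887 to 1.11), Cant1, Sh2b2 and Siva1 for Esrra (1.15 to 1.49), and Rbm12b, Igbp1b and Csn3 for Esrrg (1.71 to 2.15). For Ppara they were E130012A19Rik, Tgfa and AW011738 (1.26 to 1.32), for Ppard Traf2, Tspan3 and Iars2 (1.23 to 1.44), for Nrf1 Zfp462, Pum2 and Tada1 (1.28 to 1.42), and for Tfam Surf4, Hcfc2 and Chek2 (0.701 to 0.991). The 12 values of a gene share libraries and depth with those of every other gene.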

How the data were processed

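ChIP-seq of 6 histone marks in C2C12 myoblasts and myotubes was used, 12 libraries in all. The authors aligned the reads to mm9 with Mosaik and kept unique alignments. The deposited read files list 34-bp reads, 1 count per read, and what was merged in them and whether duplicates were removed is not given in the sources used here. The peak files were deposited with the score the authors' MACS run gave each peak. How MACS was set is not given in the sources used here, and no input library was used here.

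Samples were grouped by the cell type and mark in their labels. Reads on chromosomes 1 to 19 and X were moved 75 bp from their 5′ end, to the middle of a 150-bp fragment, and counted, and 2555806925 bases other than N gave the genome mean. Genes and TSSs came from GENCODE M1 on NCBIM37, which is mm9, and promoter sequences from the same assembly. Between 0.417% and 3.14% of reads in a library shared position and strand with another. Ratios had 1 read added to each count, were scaled by total reads and divided by the median of all promoters with 20 reads or gene bodies with 50. Past 2-fold was called higher or lower, with no p-value since each group holds 1 library. Levels, ratios and intervals were tested on simulated data. The 8 genes and the 3 lists were chosen with earlier results of these data known. Named genes are the 8 members, the nearest 3 to each, and at most the 3 highest and 3 lowest called genes of the lists for H3K4me3, H3K27ac and H3K36me3. Alternatives changed the scaling, window, read counting, minimum, added reads, threshold, background and peak lists. Python 3.11.15, numpy 2.4.6, scipy 1.17.1, pandas 2.3.3 and matplotlib 3.10.9 were used.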

Additional observations from a re-analysis of the deposited data

How the results depend on the processing

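Among the 9 member calls, none reversed under the alternatives. H3K27ac at Tfam and H3K27me3 at Ppara (each under 9 alternatives) and H3K27ac over the bodies of Esrrg and Tfam (6 and 3) stayed past 2-fold wherever the reads sufficed. The threshold of 1.5-fold, among the alternatives for promoters, cannot undo a call made at 2-fold. H3K27ac at Ppargc1a and Ppard was 1.51 and 1.40 by total reads and 1.49 and 1.38 when scaled by 10 kb windows outside peaks, and Ppargc1a was 1.93 with 5 reads added. H3K4me1 at Ppara was 0.702 in the 2 kb downstream and 0.523 with 5 reads added.

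Counts of members past 2-fold at promoters changed as follows. The share of all promoters or bodies was not computed at these settings, so the counts show only how the member calls move. By total reads H3K4me2 had 3, and with windows outside peaks H3K4me2 and H3K4me1 had 4 each. Without a minimum H3K4me3 and H3K4me2 had 1 each, H3K4me1 had 4, H3K27me3 had 5 and H3K36me3 had 2. At 1.5-fold the counts were 1 for H3K4me3, 3 for H3K4me2, 4 for H3K4me1 and 5 for H3K27ac. Many of all tested promoters pass 1.5-fold too, since for H3K27ac their lower and upper quartiles were 0.663 and 1.51. H3K4me1 had 1 with 500 bp either side, with 2 kb downstream and with 5 reads added, H3K27me3 had 0 with 500 bp either side, and H3K36me3 had 1 with 2 kb downstream. Over bodies H3K4me2 had 2 by total reads, without the TSS windows, in the part towards the 3′ end and without a minimum, H3K4me1 had 1 under all 6 alternatives, and H3K27ac had 1 without the TSS windows, in the part towards the 3′ end and from the main TSS on. With the 200 kb around the TSS as background 0 promoters lay above it for myoblast H3K36me3. Exchanging the lists gave a peak at the main TSS to 6 members for myoblast H3K27ac and to 1 for H3K27me3, and with a score of at least 100 the numbers were 1 for H3K4me1 in myoblasts, 1 in myotubes and 0 for myoblast H3K27ac. The causes of these shifts were not tested beyond what each setting removes or adds. No paired analysis was possible because each group holds 1 library. The myoblast H3K27ac library, with 1858771 reads, sets the limit for that mark.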
